A study of Mus musculus with 74 samples.

Results

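The axon guidance ligands and receptors described here are 72 mouse genes in the FPKM tables (fragment counts scaled to gene length and to library size) of 2 sets of CD11b-selected cells. They were taken by gene name alone: class 3 to class 7 semaphorins (20 genes), plexins (9), neuropilins (2), Eph receptors (14), ephrins (8), Slits (3), Robos (4), netrins (6) and the Unc5 and Dcc family (6). The names matched 74 of the 23297 features that carry a symbol. Unc50 and Plxna4os1 were left out, because they share only the letters of the name. Unc5cl was kept by its name, although it is not a netrin receptor.

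Guidance ligands steer growing axons by binding receptors that reset the actin skeleton of the growth cone. Semaphorins bind plexins, with neuropilins as co-receptors for the secreted class 3 semaphorins, ephrins bind Eph receptors, Slits bind Robos, and netrins bind Dcc and the Unc5 receptors. In the adult nervous system several of them are also carried by immune cells, glia and vessels, where semaphorins and plexins are known for cell contact, migration and activation.

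The cells came from female mice of an amyotrophic lateral sclerosis model that carries mutant human SOD1 (G93A) on a C57BL/6J background. Microglia (MG) were isolated from 1 whole spinal cord per library, and macrophages (MP) from the sciatic nerves of 1 mouse per library, or of 2 mice pooled for pre-symptomatic MP, with anti-CD11b beads and without enzymatic digestion. CD11b is also present on neutrophils and monocytes, so the beads do not select 1 cell type. Non-grafted G93A mice were sampled before symptoms (mean age 50.8 days, 4 MG and 3 MP libraries), at onset (105 days, 5 MG and 3 MP), early in the symptomatic phase at 10% weight loss (152.6 days, 4 MG and 4 MP) and at end stage (169.4 days, 4 MG and 4 MP). Control MG came from non-transgenic C57BL/6J mice (mean ages 109.8 and 165.6 days, 4 libraries each) and from mice with a wildtype human SOD1 transgene, called WT here (107.3 and 165.4 days, 4 each). A further 4 MP libraries of end-stage age are described as WT but titled and strain-labelled as G93A, and are given here as the libraries described as WT. In a second set, G93A hosts were given donor marrow, G93A or WT, at disease onset. MG and MP were taken early and at end stage, with 3 libraries per group except 2 for early MP after WT marrow. Every grafted host was itself G93A.

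Microglia markers followed the labels, while the MP libraries held more neutrophil than monocyte signal. The sum of 10 microglia markers was 650.1 to 18170 FPKM in the 33 non-grafted MG libraries and at most 1329 in the 18 MP libraries. MP libraries held 75290 to 207300 FPKM of 10 neutrophil markers, against 3695 to 13240 of 8 monocyte markers. In MG the neutrophil sum ran from 32.59 to 79450, and S100a8 alone passed 10000 FPKM in 4 MG libraries: onset replicate 5, end-stage replicate 4 and replicates 1 and 2 of WT mice of end-stage age. Oligodendrocyte markers (10 genes summed) ranged over 27890 to 32470 FPKM in pre-symptomatic MG, 1842 to 11290 in end-stage MG and 50.2 to 3115 in MP. Erythroid markers (5 genes summed) ranged over 3394 to 164600 FPKM in non-grafted MP and 0.66 to 23990 in non-grafted MG. These are bulk libraries, in which fewer cells of a type and less RNA per cell cannot be told apart. The part of the other cell types in the results below was not tested, and their values stand beside each result they move with.

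Most of the genes were low. Of the 72, 24 stayed under 1 FPKM on average in each of the 21 groups: Sema3a, Sema3d, Sema3e, Sema3g, Sema5b and Sema7a, Efna4, Efna5 and Efnb2, all 3 Slits, Ntng1, Epha1, Epha3, Epha6, Epha8, Epha10 and Ephb2, Robo3, and Dcc, Unc5b, Unc5c and Unc5d. Only 17 reached 5 FPKM in any group: Sema3b, Sema4a, Sema4c, Sema4d, Sema4f, Sema6b and Sema6d, Plxnb1, Plxnb2, Plxnc1 and Plxnd1, Nrp1 and Nrp2, Efna2 and Efnb3, and Epha2 and Ephb1. No Slit, Robo, netrin, Unc5 or Dcc gene was among them. In non-grafted MP 7 to 56 of the members were listed at 0 per library (median 49), and in MG 0 to 31 (median 5). Of 30 genes that most cells use, checked in each table, only Tfrc, which dividing and iron-taking cells use, was listed at 0 anywhere. It was at 0 in 4 of 51 non-grafted and 2 of 23 grafted libraries, all of them MP. Whether a value of 0 means absence cannot be told from this. The read depth is not in the tables, so no counting interval is given.

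The signal was spread over more genes in MG before symptoms than in MP, where 4 genes carried most of it. In pre-symptomatic MG 29 members averaged at least 1 FPKM, and the top 4 (Sema4d, Plxnb2, Plxnb1 and Sema6d) held 46% of the summed FPKM of all members. At onset 24 members averaged at least 1 FPKM, and the top 4 held 67.7%. The 5 onset libraries had 33, 12, 13, 31 and 19 members at 1 FPKM or more. In the same order their oligodendrocyte sums were 31950, 2115, 823.7, 25550 and 2922 FPKM, and the part of these cells was not tested. At end stage 16 members averaged at least 1 FPKM, and the top 4 (Sema4d, Nrp1, Plxnb2 and Sema4a) held 78.4%. In G93A MP 10 to 15 members averaged at least 1 FPKM per stage, and the top 4 held 79.1% before symptoms, 86.0% in the early symptomatic phase and 84.8% at end stage. In control MG there were 32 and 26 such members in C57BL/6J mice of onset and end-stage age, and 28 and 20 in WT mice.

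**Figure D1:**
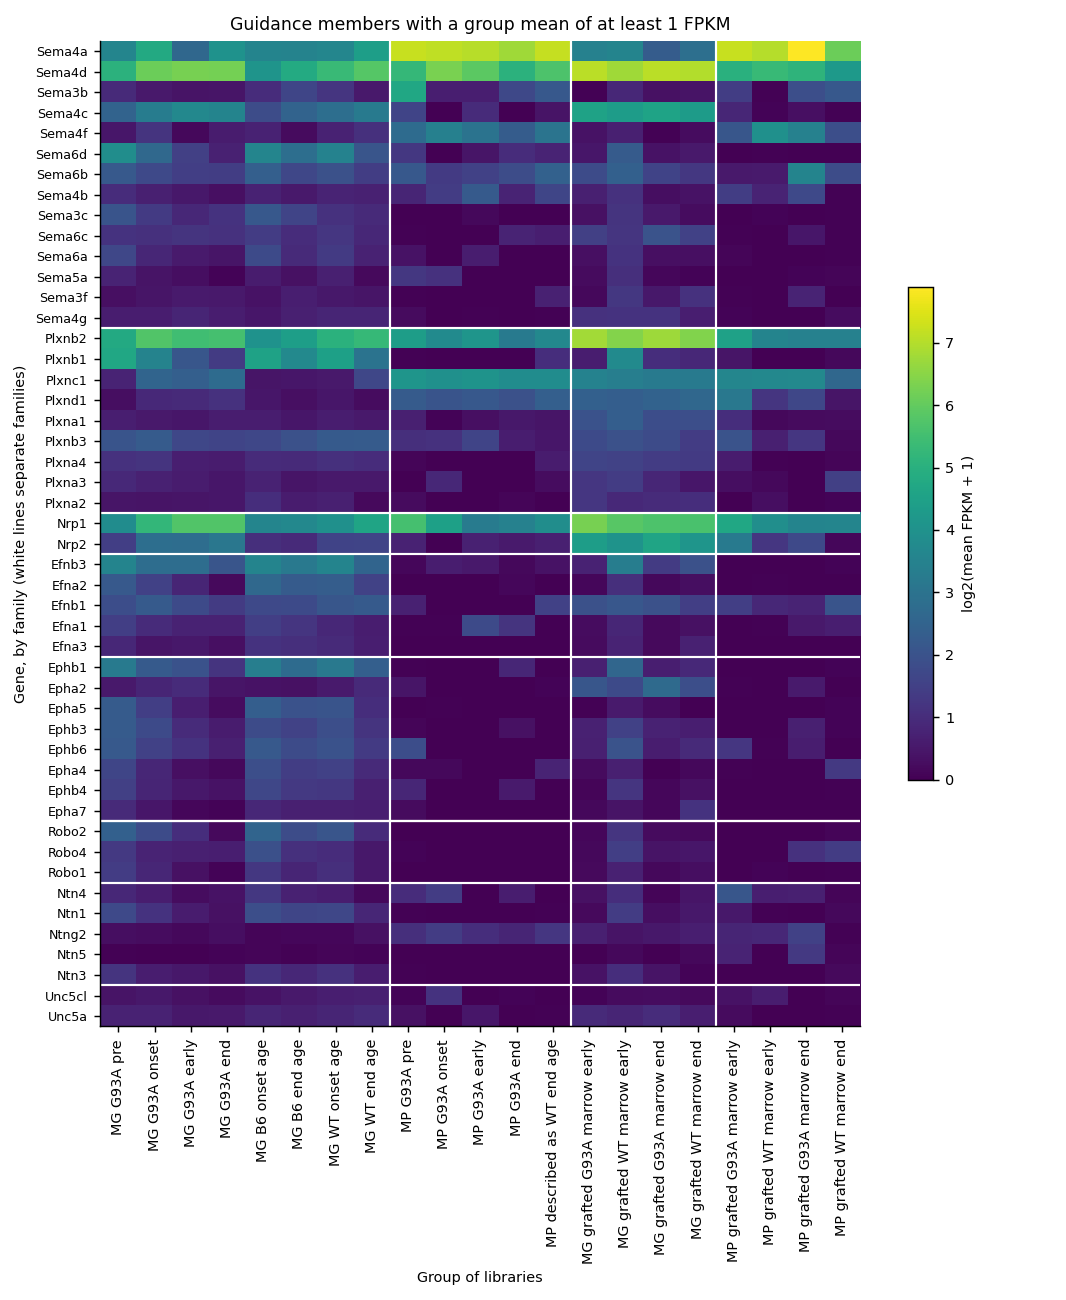
Mean level of the 48 members that reached 1 FPKM in some group (rows, by family) in the 21 groups (columns, ordered as non-grafted MG, non-grafted MP, grafted MG and grafted MP), with colour giving log2(mean FPKM + 1). Sema4a is the strongest row in MP. Sema4d and Plxnb2 are among the strongest in MG, joined by Plxnb1 before symptoms and in controls of onset age and by Nrp1 at later stages, and most Eph, ephrin, Robo and netrin rows are near 0 in MP.

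Among the ligands, Sema4a stood out in MP. Sema4a is a transmembrane class 4 semaphorin known from myeloid cells and T cells, and its gene lies at chr3:88435962-88461182 on the minus strand (mm10). In non-grafted MP its levels were 124.98, 178.56 and 138.47 FPKM before symptoms, 187.3, 125.71 and 104.93 at onset, 142.87, 123.56, 130.72 and 123.58 in the early symptomatic phase, and 126.65, 107.99, 112.07 and 80.3 at end stage. In G93A MG they were 10.9, 10.2, 10.5 and 12.4, then 11.0, 3.47, 6.09, 12.3 and 99.3, then 5.52, 5.96, 5.72 and 3.85, and then 3.03, 5.35, 3.80 and 49.1. All 14 MP libraries were above 80 FPKM and 15 of 17 MG libraries below 13, with onset replicate 5 overlapping the MP range. Averaged over the 4 stages Sema4a was at 130.9 FPKM in MP and 14.5 in MG, a log2 difference of 3.73 ± 0.28 (SE; limma adjusted p = 4.13e-15). The 4 MG libraries with the highest Sema4a, counting controls, were the same 4 with S100a8 above 10000 FPKM: besides the 2 G93A libraries, WT replicates 1 and 2 of end-stage age had 33.3 and 27.7 FPKM of Sema4a against 9.55 and 11.4 in the other two. Without those 4 libraries the difference was 4.11 ± 0.13 (adjusted p = 4.84e-27), and with terms for the neutrophil and oligodendrocyte marker scores it was 1.93 ± 0.46 (adjusted p = 0.00197). These scores themselves differ strongly between MG and MP, so a fit with them cannot separate them from cell type.

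Sema4f and Sema3b were also higher in MP, less steadily. Sema4f, another transmembrane class 4 semaphorin, was at 7.13, 5.41 and 4.77 FPKM in pre-symptomatic MP, 5.07, 10.4 and 14.03 at onset, 13.2, 4.28, 10.9 and 0 in the early phase and 4.66, 6.91, 2.43 and 1.59 at end stage. In the 17 G93A MG libraries its lowest, median and highest levels were 0, 0.13 and 5.70 FPKM, the highest again in onset replicate 5. The log2 difference was 2.23 ± 0.30 (adjusted p = 1.69e-08), and 0.86 (adjusted p = 0.406) with the marker score terms. Sema3b, a secreted ligand of neuropilins, was at 0.4, 63.3 and 11.7 FPKM in pre-symptomatic MP and at most 4.02 in the other G93A MP libraries. Its difference of 0.89 ± 0.34 (adjusted p = 0.0181) rested on pre-symptomatic replicate 2, without which it was 0.57 (adjusted p = 0.0928). That library also had the lowest neutrophil sum of the non-grafted MP libraries, 75290 FPKM, and the highest Schwann cell (4057), fibroblast, perineurial and mural (469.3) and border macrophage (1704) sums, against 25.32, 37.2 and 274.5 in replicate 1 and 873.8, 248.8 and 909.8 in replicate 3. Sema4b, whose gene overlaps Cib1 on the other strand, passed the test at 1.70 FPKM in MP against 0.561 in MG (0.52 ± 0.24, adjusted p = 0.0461).

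The other semaphorins that differed were higher in MG. Sema4c, a transmembrane ligand of Plxnb2, was at a lowest, median and highest of 2.35, 9.30 and 16.6 FPKM in the 17 G93A MG libraries and 0, 0 and 6.27 in the 14 MP libraries, 8 of which were listed at 0. Only pre-symptomatic MP replicate 2 overlapped the MG range, and the log2 difference was -2.71 ± 0.26 (adjusted p = 2.46e-12). Sema6d, a transmembrane ligand of Plxna1, was at 0.23, 1.46 and 16.7 FPKM in MG and 0, 0.01 and 3.86 in MP, so that the groups overlapped (-1.47 ± 0.29, adjusted p = 1.63e-05). Sema3c, a secreted semaphorin, was at 0, 1.12 and 4.27 FPKM in MG and at most 0.46 in MP (-1.22 ± 0.17, adjusted p = 4.69e-08). Sema4d, which binds Plxnb1 on neural cells and Cd72 on immune cells, was abundant in both, at 63.3 ± 31.6 FPKM (SD, n = 17) in MG and 50.8 ± 33.9 (SD, n = 14) in MP. Its log2 difference of -0.34 ± 0.24 did not pass the test (adjusted p = 0.198; 95% interval from -0.83 to 0.14), nor did that of Sema6b, a ligand of Plxna4 (2.37 and 2.36 FPKM, adjusted p = 0.625).

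The ephrins that could be tested were lower in MP. Efnb3, a transmembrane ephrin, had a lowest, median and highest of 0.52, 5.93 and 14.1 FPKM in G93A MG and 0, 0.005 and 1.76 in MP (-2.30 ± 0.26, adjusted p = 1.70e-10). Efnb1, of the same subclass, was at 0.48, 2.26 and 6.49 FPKM in MG and was listed at 0 in 12 of 14 MP libraries, the highest being 1.95 (-1.62 ± 0.21, adjusted p = 5.68e-09). Efna2, a membrane-anchored ephrin, was listed at 0 in 13 of 14 MP libraries and averaged 1.61 FPKM in MG (adjusted p = 2.43e-06). Among the netrins Ntn1, the secreted netrin that binds Dcc, had the highest mean in G93A MG at 1.09 FPKM, and Ntng2, a membrane-anchored netrin-G, in MP at 1.10. Slits stayed near 0: the highest mean was 0.24 FPKM for Slit2 in MG and 0.119 for Slit1 in MP.

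The plexins split between the cell types. Plxnc1, the receptor of Sema7a (chr10:94790869-94944578, minus strand), was at 12.1, 20.7 and 15.6 FPKM in pre-symptomatic MP, 13.7, 16.6 and 13.6 at onset, 17.5, 19.5, 14.5 and 11.1 in the early phase and 12.7, 20.5, 13 and 6.63 at end stage. In G93A MG its lowest, median and highest levels were 0.49, 4.13 and 11.7 FPKM. The highest MG library, onset replicate 5, was within the MP range, and the log2 difference was 1.96 ± 0.21 (adjusted p = 3.60e-11), or 0.39 (adjusted p = 0.566) with the marker score terms. Plxnd1, the receptor of Sema3e, averaged 3.33 FPKM in MP and 0.805 in MG (1.16 ± 0.22, adjusted p = 1.17e-05). Its ligand Sema3e and the Plxnc1 ligand Sema7a were both under 1 FPKM in every group.

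Plxnb1, the receptor of Sema4d (chr9:109095436-109119915, plus strand), was the 1 tested member whose G93A MG and MP libraries did not overlap (0 members were without overlap and higher in MP, against 1.02% of all features, and 1 was lower, against 4.26%). Its lowest, median and highest levels were 0.14, 4.10 and 28.2 FPKM in MG, and at most 0.1 in MP, 11 of 14 libraries being listed at 0 (-2.51 ± 0.33, adjusted p = 6.00e-09). Among the libraries described as WT, replicate 1 reached 4.22 FPKM. Plxnb2, the receptor of Sema4c, was present in both, at 16.7, 41.3 and 91.8 FPKM in MG and 5.09, 12.4 and 43.1 in MP (-1.55 ± 0.30, adjusted p = 1.17e-05). Plxnb1 and Plxnb2 thus had unlike levels in MP: 1 was near 0, and the other averaged 14.1 FPKM.

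Both neuropilins were lower in MP on average over the stages. Nrp1, which binds class 3 semaphorins and VEGF (chr8:128359020-128505476, plus strand), was at 15.4, 83.5 and 38.97 FPKM in pre-symptomatic MP, 15.8, 25.1 and 23.1 at onset, 7.16, 8.35, 9.62 and 9.74 in the early phase and 17.2, 7.81, 10.2 and 5.19 at end stage. In MG it was at 11.8, 9.44, 13.8 and 17.8, then 8.13, 81.2, 52.3, 13.1 and 25.7, then 51.5, 64.6, 52.5 and 44.02, and then 63.1, 61.8, 63.2 and 23.7. The stages ran in opposite directions in the cell types, so the average difference of -0.91 ± 0.24 (adjusted p = 0.000793) holds stages of opposite sign. Nrp2, its paralogue (chr1:62703317-62818692, plus strand), was at a lowest, median and highest of 0.99, 4.99 and 13.9 FPKM in MG and 0, 0.015 and 1.98 in MP (-2.07 ± 0.23, adjusted p = 1.20e-10).

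Of the remaining receptors, Ephb1 was the highest in MG. This receptor of B-class ephrins was at 0.22, 3.13 and 9.39 FPKM (lowest, median and highest) in MG. In MP 10 of 14 libraries were listed at 0, with 1 end-stage library at 3.10 (-1.80 ± 0.25, adjusted p = 2.12e-08). Ephb3 was at 0.37, 1.43 and 4.46 FPKM in MG and at most 1.15 in MP (-1.27 ± 0.13, adjusted p = 6.07e-12). The Eph receptor with the highest mean in MP was Ephb6, which lacks kinase activity, at 0.568 FPKM, from 1 library at 7.89. Robo2, a Slit receptor, was at 0, 0.86 and 6.99 FPKM in MG and was listed at 0 in all 14 G93A MP libraries (adjusted p = 7.48e-07, no fold given). The highest of the Unc5 and Dcc family were Unc5a in MG at 0.569 FPKM and Unc5cl in MP at 0.296. Nrp2, Sema6d, Ephb1, Efna1, Unc5a (with Hk3), Robo2, Ntn1, Ntng2, Ephb4 and Slit2 also overlap other annotated genes or RNAs, and the strand setting of the counting was not given in the sources used here, so reads of overlapping genes cannot be told apart.

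**Figure D2:**
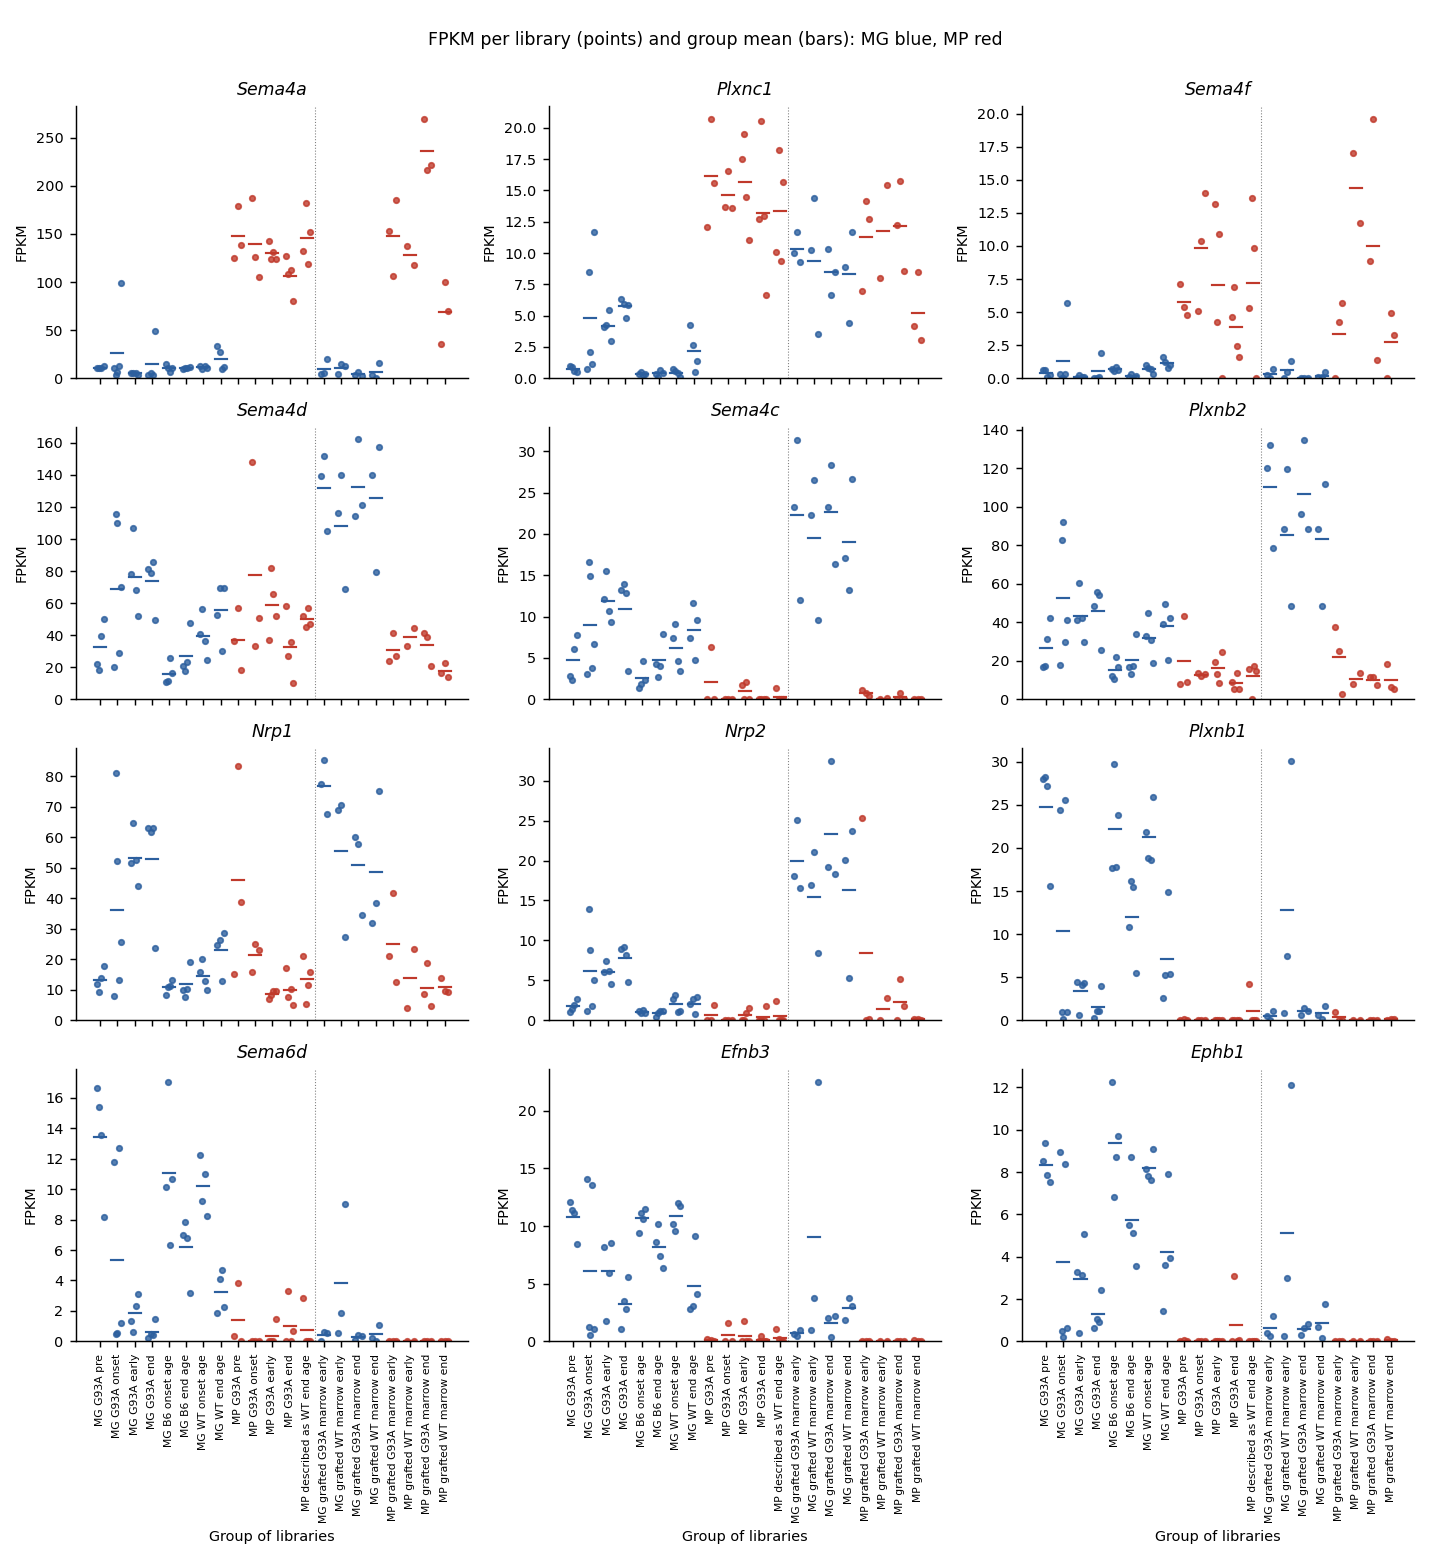
FPKM of 12 members in each library (points) and group means (bars), with MG in blue, MP in red and the grafted sets right of the dotted line. Sema4a is above 80 FPKM in each non-grafted MP library, with 2 high G93A MG libraries (onset replicate 5 at 99.3 and end-stage replicate 4 at 49.1), while Plxnb1, Sema6d, Efnb3 and Ephb1 are high in MG before symptoms and in controls of onset age, lower in WT MG of end-stage age, and under 5 FPKM in non-grafted MP.

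The promoters of 5 of these genes are shown because they are the members on which the comparison of cells and stages turns: Sema4a and Plxnc1, which were higher in MP, and Nrp1, Nrp2 and Plxnb1, which were lower. Each runs from 250 bases before to 50 after the RefSeq start (GRCm38.p6), 5′ to 3′ on the gene's strand, with capitals marking GAGGAA, the core of PU.1-type sites, or its complement TTCCTC.
Sema4a promoter, chr3:88461133-88461432, minus strand: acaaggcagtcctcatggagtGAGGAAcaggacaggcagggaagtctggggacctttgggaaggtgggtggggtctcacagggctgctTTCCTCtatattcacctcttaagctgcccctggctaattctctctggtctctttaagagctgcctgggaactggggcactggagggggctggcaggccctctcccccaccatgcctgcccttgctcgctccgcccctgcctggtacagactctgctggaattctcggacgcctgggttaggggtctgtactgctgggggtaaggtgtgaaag
Plxnc1 promoter, chr10:94944796-94945095, minus strand: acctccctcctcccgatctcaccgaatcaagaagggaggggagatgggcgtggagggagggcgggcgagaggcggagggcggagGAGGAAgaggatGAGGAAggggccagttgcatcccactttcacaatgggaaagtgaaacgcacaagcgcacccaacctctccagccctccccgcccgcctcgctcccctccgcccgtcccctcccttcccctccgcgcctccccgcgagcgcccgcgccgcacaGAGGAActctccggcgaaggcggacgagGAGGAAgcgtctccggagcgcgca
Nrp1 promoter, chr8:128358823-128359122, plus strand: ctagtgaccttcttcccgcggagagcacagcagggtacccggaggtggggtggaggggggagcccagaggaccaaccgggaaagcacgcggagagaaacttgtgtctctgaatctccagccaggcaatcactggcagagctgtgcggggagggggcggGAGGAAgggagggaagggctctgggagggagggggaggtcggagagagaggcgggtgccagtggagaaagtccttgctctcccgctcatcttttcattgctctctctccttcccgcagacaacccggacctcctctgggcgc
Nrp2 promoter, chr1:62703067-62703366, plus strand: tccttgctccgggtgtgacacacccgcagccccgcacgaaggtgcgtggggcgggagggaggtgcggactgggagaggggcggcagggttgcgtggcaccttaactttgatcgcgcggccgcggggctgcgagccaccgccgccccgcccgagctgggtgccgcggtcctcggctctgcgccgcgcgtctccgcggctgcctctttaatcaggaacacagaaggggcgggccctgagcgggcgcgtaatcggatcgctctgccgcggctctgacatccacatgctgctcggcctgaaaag
Plxnb1 promoter, chr9:109095186-109095485, plus strand: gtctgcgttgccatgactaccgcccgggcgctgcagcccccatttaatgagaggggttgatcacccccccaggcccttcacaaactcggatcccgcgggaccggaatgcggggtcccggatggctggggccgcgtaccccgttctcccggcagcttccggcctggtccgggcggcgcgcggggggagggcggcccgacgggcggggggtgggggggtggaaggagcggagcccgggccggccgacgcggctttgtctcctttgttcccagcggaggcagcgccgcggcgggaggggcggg
The first Sema4a promoter holds 2 matches, Plxnc1 4, Nrp1 1, and Nrp2 and Plxnb1 0 in these windows. Sema4a promoters 2, 3 and 4, which are not printed, hold 1, 0 and 0. RefSeq gave 78 promoters for 62 of the 72 members. GAGGAA was found on either strand in 25 of the 78 (32.1%), against 9289 of 32851 promoters in all (28.3%). TGACTCA, the AP-1 site, was in 2 (2.56%, those of Sema4c and Sema6b) against 5.2%, and the core of the interferon-stimulated response element in 2 (2.56%, those of Plxnc1 and Sema6b) against 3.44%.

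Of the 72 members 24 averaged at least 1 FPKM over the 51 non-grafted libraries and were tested. A gene that passes this limit through 1 cell type alone is bound to differ, so the counts describe and do not support. Over the 4 stages 6 members were higher in MP and 16 lower, against 25% and 48.3% (73.4% in either direction) of the 11773 features tested. The median log2 difference was -1.05 for the members and -0.38 for all features. Before symptoms 6 were higher and 13 lower (23.6% and 31% of all features, 54.7% in either direction), with 3 higher and 9 lower members whose libraries did not overlap (23.8% and 30.8%). At end stage 3 were higher and 8 lower (13.1% and 26.3%, 39.4% in either direction), with 3 and 10 without overlap (11.9% and 25.3%).

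Sema4a was higher in MP at both ends of the disease, and Nrp1 changed sides. Sema4a was higher in MP by 3.62 ± 0.59 before symptoms (adjusted p = 1.81e-06) and 3.59 ± 0.54 at end stage (adjusted p = 2.80e-06), and the difference between these was -0.03 ± 0.80 (adjusted p = 0.985). Nrp1 was higher in MP before symptoms, at 45.9 against 13.2 FPKM (1.45 ± 0.50, adjusted p = 0.0125), and lower at end stage, at 10.1 against 52.95 FPKM (-2.29 ± 0.46, adjusted p = 0.000141). The change of the difference was -3.75 ± 0.68 (adjusted p = 0.000556). In the 3 pre-symptomatic MP libraries Nrp1, at 15.35, 83.47 and 38.97 FPKM, stood beside border macrophage sums of 274.5, 1704 and 909.8 FPKM, fibroblast, perineurial and mural sums of 37.2, 469.3 and 248.8, and Schwann cell sums of 25.32, 4057 and 873.8. Their part was not tested. The pre-symptomatic call was lost without MP replicate 2 (0.88, adjusted p = 0.17) and under median-ratio scaling (0.99, adjusted p = 0.0604).

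The difference between MP and MG changed with stage for 10 of the 24 members, 7 upward (toward MP) and 3 downward, against 9.51% and 10.3% of all features (19.8% in all). Downward were Nrp1, Plxnc1 (-2.30 ± 0.59, adjusted p = 0.00855), which was higher in MP by 3.29 before symptoms and by 0.99 at end stage, and Nrp2 (-1.81 ± 0.65, adjusted p = 0.0451). Upward were Plxnb1 (3.42 ± 0.93, adjusted p = 0.0115), Sema6d (2.93 ± 0.82), Ephb1 (2.58 ± 0.71), Robo2, Efna2, Epha5 and Ephb3. In these 7 the MG mean was 3.64 to 24.8 FPKM before symptoms and 0.155 to 1.58 at end stage, while the highest MP mean at either stage was 1.42 (Sema6d). Plxnb1, for example, stood at -4.59 ± 0.68 before symptoms and -1.17 (adjusted p = 0.138) at end stage. Sema4d and Plxnb2 passed the test at end stage and not before symptoms, at -1.35 ± 0.47 (adjusted p = 0.0207) and -2.38 ± 0.58 (adjusted p = 0.00112), and their change with stage did not pass (adjusted p = 0.112 and 0.154). The Sema4d call was lost without MP end-stage replicate 4 (-0.90, adjusted p = 0.134), the library with 10.3 FPKM. That library also had the lowest Sema4a, Nrp1 and Plxnc1 of its group. Its erythroid marker sum was 164600 FPKM, against 4763 to 35520 in the others. The part of erythroid cells was not tested.

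**Figure D3:**
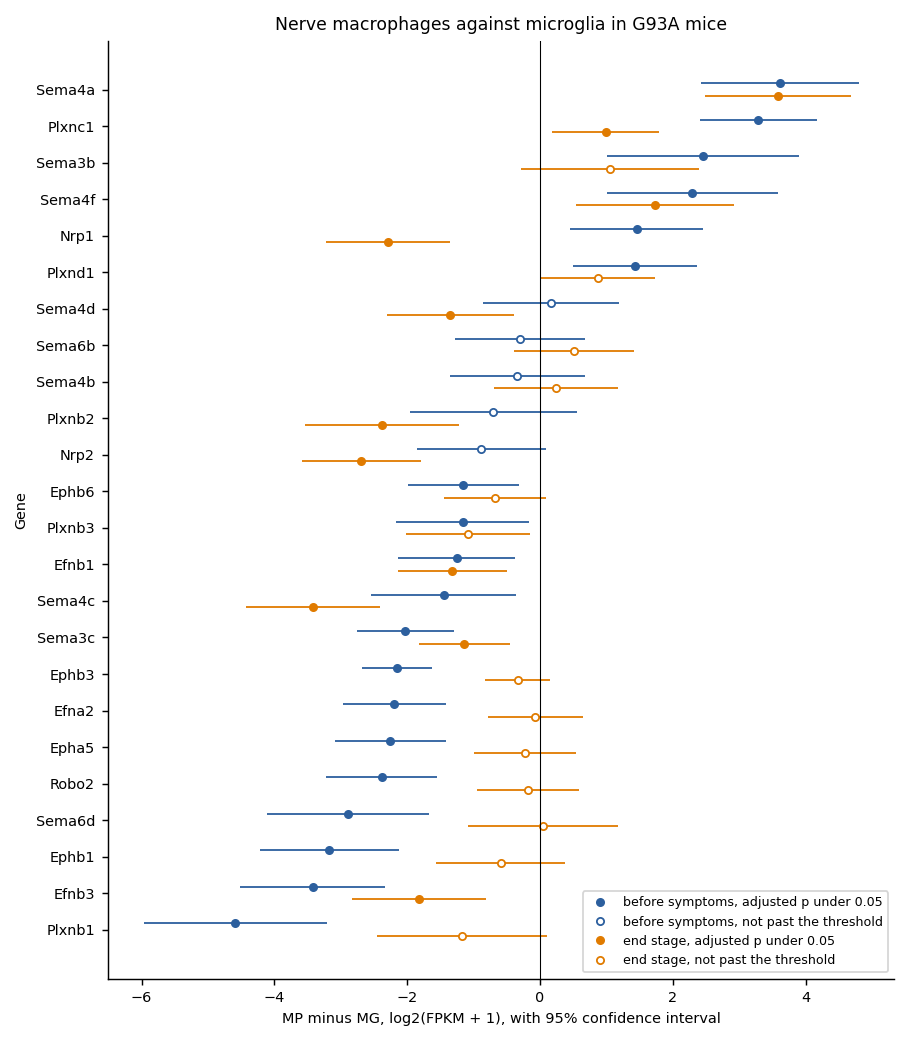
Log2 difference between MP and MG for the 24 tested members, with 95% intervals, before symptoms (blue) and at end stage (orange); filled points passed limma at an adjusted p under 0.05. Sema4a is near 3.6 at both stages, Nrp1 moves from 1.45 to -2.29, and Plxnb1 moves from -4.59 to -1.17.

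In onset MG the levels of several members moved with the markers of other cells, library by library. The oligodendrocyte marker sums of the 5 onset libraries were 31950, 2115, 823.7, 25550 and 2922 FPKM. Plxnb1 in the same order was at 24.4, 0.96, 0.14, 25.6 and 1.00 FPKM. Sema6d was at 11.8, 0.51, 0.53, 12.7 and 1.2, and Ephb1 at 8.97, 0.51, 0.22, 8.40 and 0.63. Replicates 1 and 4 were thus high in all 3 genes and in the oligodendrocyte sum, and the other 3 were low in each. Nrp1 ran the other way at 8.13, 81.2, 52.3, 13.1 and 25.7, and so did Sema4d at 20.4, 115.55, 110.09, 28.9 and 69.8 and Nrp2 at 1.17, 13.9, 8.86, 1.85 and 4.99. The microglia marker sums were 1789, 11120, 18170, 2408 and 6273 FPKM, also lowest in replicates 1 and 4. Neuron sums were 514.9, 28.8, 14.08, 476.7 and 39.95, and astrocyte sums 2650, 446.8, 71.55, 2778 and 126.2, both highest in replicates 1 and 4. The part of each cell type was not tested. With terms for the oligodendrocyte and neutrophil scores, the average difference between MP and MG was 1.17 for Plxnb1, 1.49 for Sema6d and 0.97 for Ephb1, each of opposite sign to the value without them. The neutrophil sum was at most 67900 FPKM in G93A MG and at least 75290 in G93A MP, so these terms largely follow cell type. Such differences are extrapolated and cannot be separated from cell type, and Plxnb1 itself was at most 0.1 FPKM in G93A MP. Under the same terms Nrp2 was at -3.09 (adjusted p = 0.000114) and Nrp1 at -1.88 (adjusted p = 0.0173), and 12 members passed instead of 22.

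**Figure D4:**
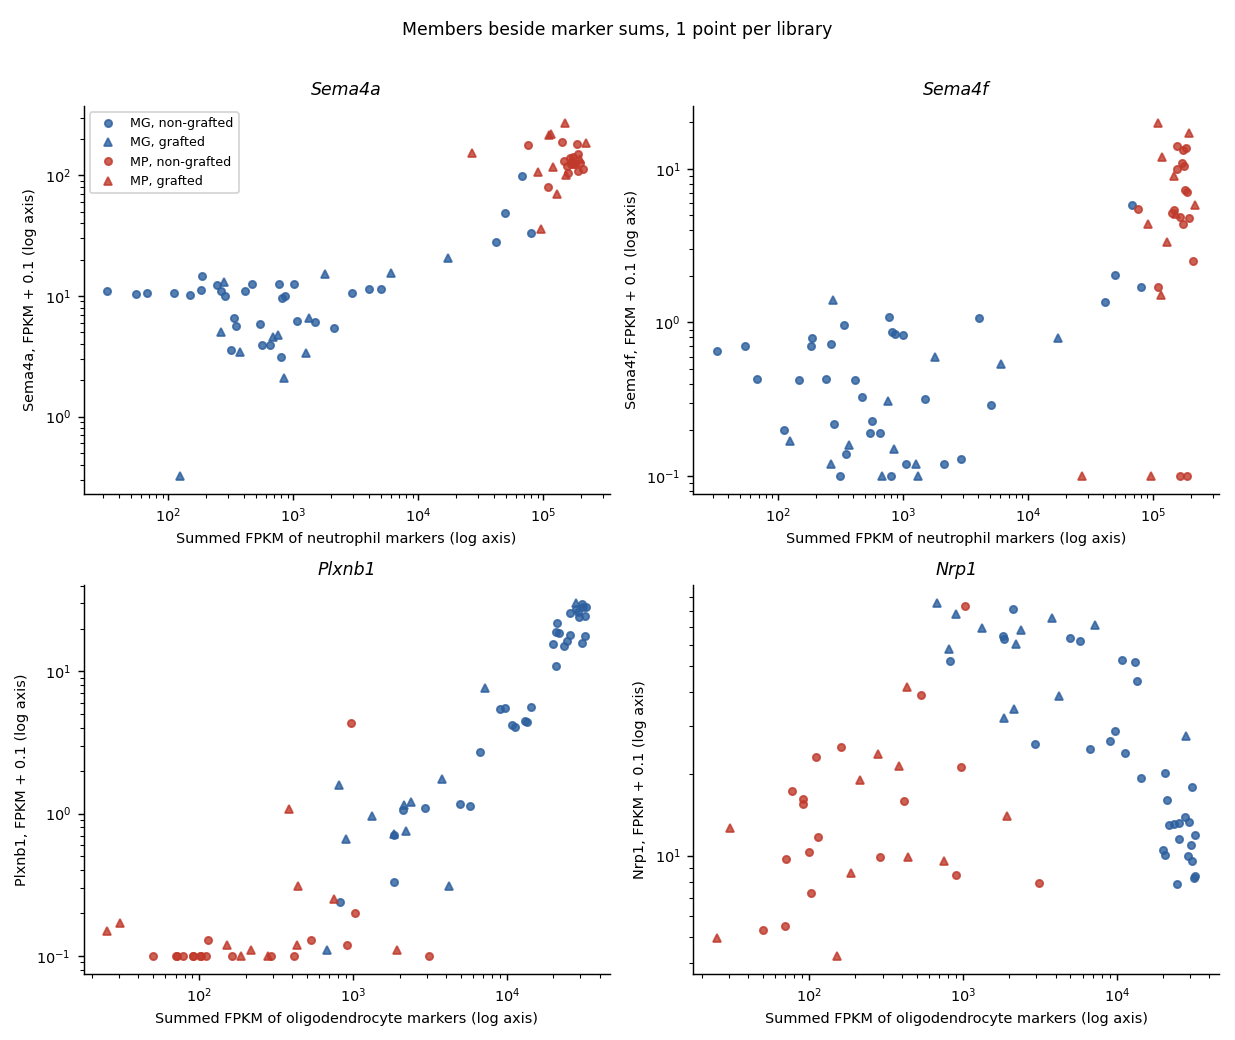
FPKM + 0.1 of Sema4a and Sema4f against the summed neutrophil markers, and of Plxnb1 and Nrp1 against the summed oligodendrocyte markers, 1 point per library on log axes, coloured by cell type. MP libraries and the MG libraries with the highest neutrophil sums have high Sema4a. Within non-grafted MP, pre-symptomatic replicate 2, with the lowest sum (75290 FPKM), had 178.56 of Sema4a, and end-stage replicate 3, with the highest (207300), had 112.07. These 2 libraries also differ in stage and in other marker sums, such as border macrophage (1704 and 445.3 FPKM). The part of neutrophils was not tested. The MG libraries with the highest oligodendrocyte sums have high Plxnb1 and low Nrp1. Not all MG libraries follow this order. Early G93A replicates 1 and 4, with sums of 13070 and 13430 FPKM, had Plxnb1 at 4.40 and 4.29 and Nrp1 at 51.54 and 44.02. WT replicate 1 of end-stage age, with a sum of 6709, had 2.62 and 24.62.

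In the grafted mice Sema4a again separated the cell types. It was at 153.31, 106.14 and 184.77 FPKM in early MP after G93A marrow, 269.76, 216.08 and 221.2 at end stage, 137.79 and 117.71 in early MP after WT marrow and 35.95, 100.44 and 70.35 at end stage after WT marrow. In the 12 grafted MG libraries it was at a lowest, median and highest of 0.22, 4.81 and 20.5 FPKM. No grafted MG library reached the lowest MP library, and the log2 difference was 4.29 ± 0.35 (adjusted p = 3.04e-09). Sema4f was also higher in MP (7.61 and 0.281 FPKM, 2.24 ± 0.38, adjusted p = 3.84e-05). Of the 19 members tested, 2 were higher in MP and 14 lower, against 26.3% and 35.3% of the 11248 features tested. Libraries did not overlap for 1 higher and 4 lower members (6.43% and 5.07%). In the same comparison 10 of 10 neutrophil markers were higher in MP, 10 of 10 microglia markers lower and 8 of 8 tested oligodendrocyte markers lower. The neutrophil markers of grafted MG summed to 124.8 to 17200 FPKM, and those of grafted MP to 26970 to 218400. With the marker score terms 3 members passed instead of 16, and Sema4a was at 1.21 (adjusted p = 0.389). The neutrophil sums did not overlap between the cell types, so that fit cannot separate them from cell type.

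Sema4c, Sema4d, Plxnb2 and both neuropilins were higher in grafted MG. Sema4d had a lowest, median and highest of 68.6, 130.2 and 162 FPKM in grafted MG and 13.7, 27.3 and 44.5 in MP (-2.05 ± 0.18). Sema4c was at 9.55, 22.8 and 31.4 FPKM in MG and at most 1.18 in MP (-4.07 ± 0.23), and Plxnb2 at 48.4, 92.3 and 134.68 in MG and 2.61, 11.3 and 37.7 in MP (-2.99 ± 0.32). None of these 3 overlapped. Nrp1 was at 27.4, 63.9 and 85.3 FPKM in MG and 4.16, 12.54 and 41.8 in MP (-2.05 ± 0.28, adjusted p = 3.43e-06), and Nrp2 at 5.34, 18.7 and 32.5 in MG and 0.01, 0.14 and 25.3 in MP (-3.16 ± 0.47, adjusted p = 7.40e-06). Epha2, an Eph receptor of epithelial and vascular cells, averaged 3.54 FPKM in MG and 0.127 in MP (-1.89 ± 0.27). Plxnc1 did not pass the test in the grafted set (10.1 and 9.15 FPKM, 0.08 ± 0.24, adjusted p = 0.790, 95% interval from -0.42 to 0.59), and Plxnd1 was lower in MP (2.97 and 4.58 FPKM, -1.11 ± 0.36, adjusted p = 0.0112). The grafted and non-grafted tables were not tested against each other.

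Within G93A MG more members fell than rose over the disease course. Between the pre-symptomatic and end stages Plxnc1, Nrp1, Nrp2 and Sema4d rose, and 15 members fell, against 24.8% and 31.1% of the 11750 features tested, with 27 members tested. Those that fell were Sema6a, Sema6b and Sema6d among the semaphorins, Plxnb1, the ephrins Efna1, Efna2 and Efnb3, the Eph receptors Epha4, Epha5, Ephb1, Ephb3, Ephb4 and Ephb6, Robo2, and Ntn1. The median log2 change was -0.90 for the members and 0.03 for all features. Libraries did not overlap for 3 higher and 14 lower members (23.1% and 29.7%).

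Nrp1 rose from 13.2 to 52.95 FPKM (1.86 ± 0.45, adjusted p = 0.00184), Nrp2 from 1.78 to 7.77 (1.66 ± 0.40, adjusted p = 0.00169), Plxnc1 from 0.728 to 5.74 (1.97 ± 0.42, adjusted p = 0.000765) and Sema4d from 32.4 to 73.9 (1.25 ± 0.45, adjusted p = 0.0206). Plxnc1 was at 0.94, 0.92, 0.56 and 0.49 FPKM before symptoms and 6.31, 5.95, 4.79 and 5.89 at end stage, without overlap. Nrp2 was at 0.99, 1.46, 1.94 and 2.71 and then 8.93, 9.12, 8.22 and 4.80, also without overlap. Sema4d was at 21.9, 18.2, 39.6 and 50 and then 81.4, 78.8, 85.7 and 49.6, so that 1 end-stage library, replicate 4, lay within the pre-symptomatic range. That library is the one with 20413 FPKM of S100a8, and it also had the lowest Nrp1 and Sema4c of its group.

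The members that fell most had been abundant before symptoms, and were abundant in control MG of onset age. Plxnb1 was at 28.04, 28.19, 27.15 and 15.6 FPKM before symptoms and 0.23, 1.04, 1.07 and 3.96 at end stage (-3.48 ± 0.72, adjusted p = 0.000591). Sema6d was at 16.7, 15.4, 13.5 and 8.2 and then 0.23, 0.47, 0.43 and 1.46 (-3.14 ± 0.53, adjusted p = 0.000106), and Ephb1 at 8.54, 9.39, 7.85 and 7.51 and then 0.64, 1.08, 0.93 and 2.44 (-2.09 ± 0.53, adjusted p = 0.00236). All 3 were without overlap. Efnb3 was at 12.1, 11.4, 11.1 and 8.43 FPKM and then 1.06, 3.52, 2.85 and 5.60 (-1.57 ± 0.54, adjusted p = 0.0164). C57BL/6J MG of onset age had 17.6 to 29.8 FPKM of Plxnb1 and 6.34 to 17.04 of Sema6d, and WT MG of onset age 18.6 to 25.9 and 8.25 to 12.3. WT MG of end-stage age were lower, with 2.62, 5.31, 14.9 and 5.41 FPKM of Plxnb1, 1.89, 4.10, 4.68 and 2.26 of Sema6d, 1.42, 3.59, 7.92 and 3.96 of Ephb1 and 2.79, 3.06, 9.12 and 4.13 of Efnb3. None of the members that fell passed the test against these WT controls, of which replicates 1 and 2 had S100a8 above 10000 FPKM. C57BL/6J MG of end-stage age, against which no test was made, had 10.79, 16.17, 15.49 and 5.48 FPKM of Plxnb1 and 7.01, 7.83, 6.78 and 3.18 of Sema6d. They had 5.52, 8.72, 5.11 and 3.55 of Ephb1 and 8.61, 10.14, 7.44 and 6.38 of Efnb3. Robo2 went from 5.27, 5.66, 3.39 and 3.06 FPKM to 0, 0, 0.09 and 0.53, Efna2 from a mean of 3.64 to 0.155, and Ntn1 from 2.13, 2.90, 2.25 and 1.96 to 0.06, 0.26, 0.17 and 0.66.

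Beside these changes, 9 of 10 oligodendrocyte, 8 of 8 tested neuron and 8 of 9 astrocyte markers fell in MG between the same stages. In the same comparison 5 of 9 tested endothelial markers fell, and 6 of 10 neutrophil, 3 of 7 tested monocyte, 4 of 5 tested border macrophage and 2 of 10 microglia markers rose. The 10 border macrophage markers summed to 3.94 to 6.15 FPKM in pre-symptomatic MG and 97.83 to 237.3 in end-stage MG, beside the rise of Nrp1, Nrp2 and Plxnc1. Within end-stage MG the border sum was highest in replicate 4, which had the lowest Nrp1 (23.72) and Nrp2 (4.80). It was lowest in replicate 3, which had the highest Nrp1 (63.17) and the lowest Plxnc1 (4.79). In onset MG, replicates 3 and 5 had border sums of 13.16 and 170.7 FPKM and Nrp1 at 52.31 and 25.68. The 10 microglia markers summed to 1523, 1504, 4454 and 7762 FPKM before symptoms. At end stage they summed to 8947, 8307, 9367 and 3173, lowest in replicate 4, which also had the lowest Nrp1. The part of these cell types was not tested. The neuron markers summed to 370.4 to 514.4 FPKM in pre-symptomatic MG and to 15.21 to 134.4 in end-stage MG. With the oligodendrocyte and neutrophil score terms 8 members passed the test instead of 19, Nrp1 being at 0.78 (adjusted p = 0.0842) and Nrp2 at 0.72 (adjusted p = 0.0997). Without the MG libraries above 10000 FPKM of S100a8, Nrp1 was at 2.20 (adjusted p = 0.000992) and Nrp2 at 1.85 (adjusted p = 0.00178). Sema4a, at -0.44 (adjusted p = 0.579) with all libraries, was then at -1.27 (adjusted p = 0.000762).

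**Figure D5:**
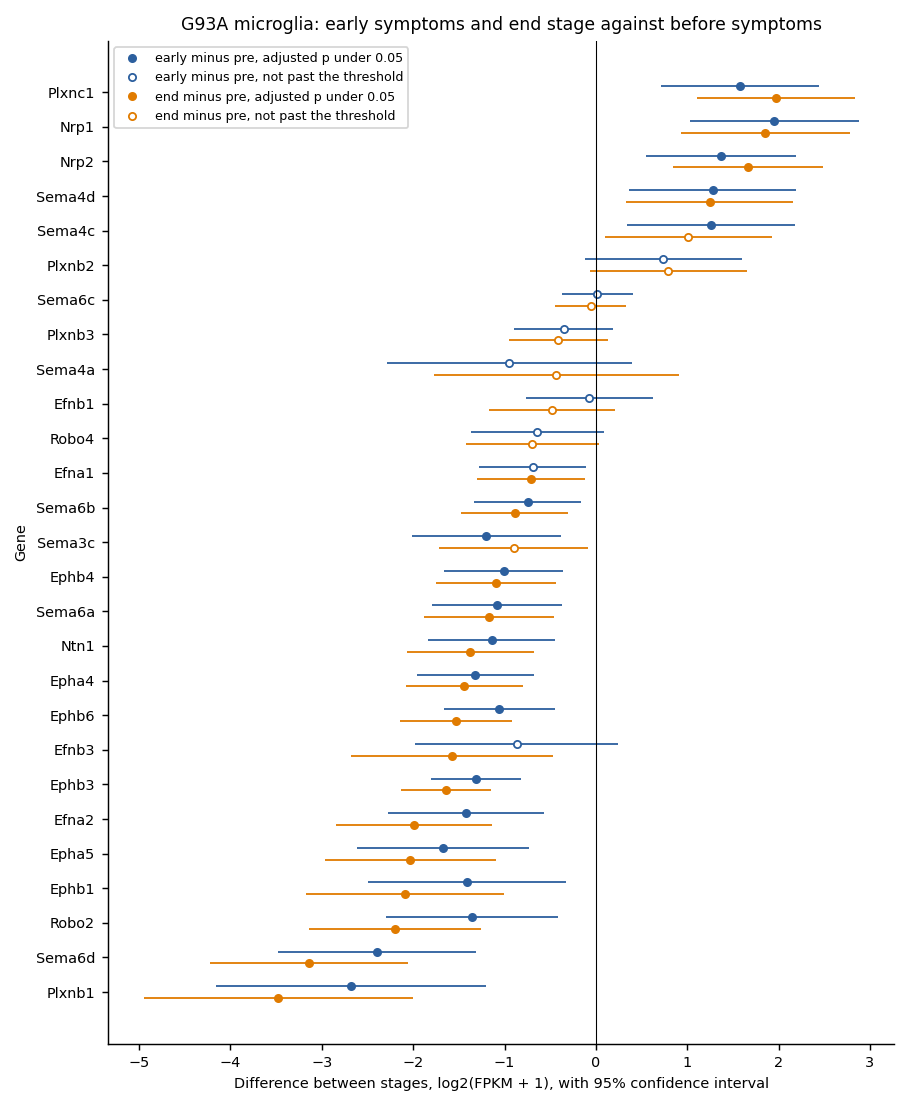
Log2 change in G93A MG, relative to the pre-symptomatic stage, at the early symptomatic (blue) and end (orange) stages for the 27 tested members, with 95% intervals; filled points passed limma at an adjusted p under 0.05. Nrp1, Nrp2, Plxnc1 and Sema4d lie right of 0 and Plxnb1, Sema6d and the Eph receptors left of 0 at both stages.

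At the early symptomatic stage 5 members were higher than before symptoms and 14 lower, against 19.2% and 16% of all features, and 5 and 14 were without overlap (21.4% and 22.9%). Nrp1 stood at 53.2 FPKM (1.95 ± 0.45, adjusted p = 0.00326), and Sema4c, which did not pass at end stage (1.01, adjusted p = 0.0556), rose from 4.76 to 11.9 FPKM (1.26 ± 0.45, adjusted p = 0.0321). The count of calls depended on single libraries: it was 8 without early replicate 2, 11 without pre-symptomatic replicate 2 and 12 without pre-symptomatic replicate 1. Early replicate 2 had 0.61 FPKM of Plxnb1 and 0.38 of Ephb1, the lowest of its group in both.

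Against WT MG of end-stage age, 1 member was called in end-stage G93A MG. The count was 8 with the marker score terms and 15 with library quality weights. Nrp2 was at 8.93, 9.12, 8.22 and 4.80 FPKM in G93A and 1.99, 2.66, 0.78 and 2.90 in WT mice, without overlap (1.54 ± 0.40, adjusted p = 0.0188). The call was lost without any 1 of G93A replicates 1, 2 and 3 or WT replicate 3 (adjusted p from 0.0541 to 0.0951). Of the 27 tested members, 1 was higher and 0 lower, against 2.81% and 4.19% of all features, and 12 had an unadjusted p under 0.05. Nrp1 was at 52.95 and 23.1 FPKM (1.12 ± 0.45, adjusted p = 0.127) and Plxnc1 at 5.74 and 2.18 FPKM (1.24 ± 0.42, adjusted p = 0.0712). Libraries did not overlap for 2 higher and 5 lower members (5.97% and 10.6%). WT replicates 1 and 2, with S100a8 above 10000 FPKM, had Plxnc1 at 4.23 and 2.67 FPKM against 0.46 and 1.35 in replicates 3 and 4, and without the libraries above that limit Plxnc1 passed the test (1.84, adjusted p = 0.00822).

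Within MP no member passed a test, where few features did. Between the pre-symptomatic and end stages 0 of 12 tested members were called (0.00975% of all features, 1 member at an unadjusted p under 0.05), and end-stage MP against the libraries described as WT gave 0 of 12 (0% of all features, 1 member at an unadjusted p under 0.05). Nrp1 went from 45.9 to 10.1 FPKM (-1.89 ± 0.52, adjusted p = 0.496), with replicates 1 before symptoms and at end stage at 15.4 and 17.2. Sema4a was at 147 FPKM before symptoms, 107 at end stage (-0.46 ± 0.23, adjusted p = 0.776) and 131.86, 181.65, 118.83 and 151.61 in the libraries described as WT (-0.45 ± 0.21, adjusted p = 0.755). Both comparisons share the end-stage libraries. In neither was a member without overlap, against 1.31% of all features higher and 4.81% lower between stages, and 1.31% and 2.27% against the libraries described as WT. Plxnb2 was listed at 0 in replicate 2 described as WT and at 14.9 to 17.1 in the other 3.

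Between marrow sources limma called 0 members in MG early and at end stage and in MP early and at end stage (of 23, 23, 14 and 14 tested, with 3, 0, 0 and 4 at an unadjusted p under 0.05, and 0% of all features called in each). In early MG 11 members were called with library quality weights and 4 without WT-marrow replicate 1. In end-stage MP, Sema4a was at 269.76, 216.08 and 221.2 FPKM after G93A marrow and 35.95, 100.44 and 70.35 after WT marrow, without overlap (-1.87 ± 0.37, unadjusted p = 0.000279 in limma, adjusted p = 0.151). Without WT-marrow replicate 2 the adjusted p was 0.0224, and Sema4a was the 1 member called. The WT-marrow libraries held 438.2 to 1938 FPKM of oligodendrocyte and 440.1 to 853.3 of border macrophage markers, against 25.25 to 215 and 231.9 to 432.3 after G93A marrow. Neutrophil sums overlapped (95550 to 152000 and 110200 to 147700). Features without a symbol held 16.7% to 23.3% of the FPKM after WT marrow and 10.3% to 12.9% after G93A marrow. The part of these differences was not tested. In this comparison 6 members were lower without overlap and 0 higher, against 14% and 9.03% of all features, and 4 had an unadjusted p under 0.05. Sema4d was at 33.8 after G93A and 17.7 FPKM after WT marrow (-0.87 ± 0.39, adjusted p = 0.322). In early MG, Plxnb1 was at 0.86, 7.51 and 30.1 FPKM after WT marrow against a mean of 0.56 after G93A marrow (adjusted p = 0.407). Replicate 3, the library with 30.1, held 28050 FPKM of oligodendrocyte markers against 1320 and 7214 in the other two.

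Genes that act with the members were followed in a list of 27 partners (co-receptors and ligands such as Trem2, Cd72, VEGFs and their receptors, and RGMs) and a list of 42 cytoplasmic signalling genes. Of 17 partners tested, 3 were higher in MP and 12 lower over the 4 stages, with a median of -1.15, and of 35 signalling genes 8 were higher and 24 lower, against 25% higher and 48.3% lower and a median of -0.38 over all features. Trem2, which pairs with Plxna1 in myeloid cells, was at 40.1 FPKM in MP and 871 in MG (-4.45 ± 0.47), while its adaptor Tyrobp was high in both at 2622 and 2425 (0.82). This average hides a change with stage, which was called downward for Tyrobp. Tyrobp was called higher in MP before symptoms, in neither direction at end stage, and lower in MP in the grafted set. Gpc1, a proteoglycan that binds Slits, was higher in MP (32.9 and 4.52 FPKM, 2.76), and so was L1cam, a partner of Nrp1 (5.82 and 0.590 FPKM, 1.90). Flt1, a VEGF receptor, was at 2.49 and 17.6 (-2.59). Among the signalling genes Ngef, an exchange factor downstream of Eph receptors, was at 0.029 FPKM in MP and 24.6 in MG (-3.76), Chn1, a Rac-inhibiting effector of Eph receptors, at 2.18 and 35.8 (-3.40), and Fyn, a kinase downstream of plexins, at 9.26 and 61.2 (-2.71). Fes, a kinase that Sema3a signalling uses, was higher in MP (112.9 and 34.1 FPKM, 2.07), as was Vav3 (12.2 and 1.82, 2.34).

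In MG, between the pre-symptomatic and end stages, 5 of 16 tested partners rose and 6 fell, and 8 of 37 signalling genes rose and 15 fell, against 24.8% and 31.1% of all features. Cd72, an immune receptor of Sema4d, rose from 6.27 to 206 FPKM (4.76 ± 0.68), Tyrobp from 342 to 4099 (3.67) and Trem2 from 215 to 1299 (2.71). Ngef fell from 50.8 to 4.63 FPKM (-3.33) and Chn1 from 73.8 to 8.26 (-3.27), while Fes rose from 13.7 to 41.2 (1.68). Against WT MG of end-stage age, Cd72 was at 206 and 43.5 FPKM (2.23, adjusted p = 0.044) and Flt1 at 26.1 and 4.15 (2.34, adjusted p = 0.00121), the 2 of 16 partners that passed. Of the signalling genes Rasa1 was higher (0.87) and Pak1 lower, at 20.1 against 34.2 FPKM (-0.76). In the grafted set 3 of 14 tested partners were higher in MP and 10 lower, and 8 of 33 signalling genes were higher and 18 lower, against 26.3% and 35.3% of all features. Within MP, and between marrow sources, 0 genes of either list passed.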

How the data were processed

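The authors deposited FPKM per gene in a table of 51 non-grafted libraries and another of 23 grafted ones. Per the submitters' processing notes, the build was mm10, and R 3.2.5, DESeq2, SAMtools, Picard and FastQC were among the tools. Aligner, strand setting and read depth: not given in the sources used here. Values were read with decimal commas, and 27 symbols that the non-grafted table held as dates were matched by gene identifier. The genes and lists were chosen with earlier results of these data known.

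Libraries were grouped by their labels. Differences were fitted with limma 3.58.1 (R 4.3.3) on log2(FPKM + 1), with 1 mean per group and an intensity trend, over all features averaging at least 1 FPKM in the libraries of the fit. Calls are Benjamini-Hochberg adjusted p under 0.05 over all features. A log2 difference on this scale understates the change of low genes. Errors are SE for log2 values and SD for FPKM. In all 14 comparisons were made. Named genes are the highest of each family in MG and in MP, those called whose higher group averaged at least 5 FPKM, the 14 that differed most between MP and MG, and of the partner and signalling lists up to 6 per comparison. Others with values, such as Sema4b, Plxnd1, Epha2, Efna2 and Sema6b, were chosen after their values were seen. Replicates are separate mice or pools, and nothing was tested across the 2 tables. The method was tested on simulated data. Alternatives were another pseudocount, no filter, median-ratio scaling, the compared groups alone, library weights, a replicate block, marker score terms, MG without high S100a8, and leaving out each library.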

Additional observations from a re-analysis of the deposited data

Results flagged for a closer look

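Single libraries stood apart from the others of their group in 6 of the 80 groups of 4 or 5 libraries whose mean for a member was at least 5 FPKM. Chance gives about 1 in 20. In end-stage G93A MG, replicate 4 had Nrp1 at 23.7 FPKM against 61.8 to 63.2 in the others, Sema4c at 3.44 against 12.9 to 13.9 and Sema4a at 49.1 against 3.03 to 5.35. In onset MG, replicate 5 had Sema4a at 99.3 FPKM against 3.47 to 12.3. Both libraries had S100a8 above 10000 FPKM. In pre-symptomatic MG, replicate 4 had Plxnb1 at 15.6 FPKM against 27.2 to 28.2. Among the MP libraries described as WT, replicate 2 had Plxnb2 listed at 0 against 14.9 to 17.1.

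The difference between MP and MG changed between the pre-symptomatic and end stages for 10 members, by limma's test of the change itself. On the log2 scale the change was -3.75 for Nrp1, -2.30 for Plxnc1 and -1.81 for Nrp2. It was 3.42 for Plxnb1, 2.93 for Sema6d, 2.58 for Ephb1, 2.20 for Robo2, 2.12 for Efna2, 2.03 for Epha5 and 1.82 for Ephb3. In onset MG the levels of Plxnb1, Sema6d and Ephb1 moved with the oligodendrocyte, neuron and astrocyte marker sums. Robo2, Efna2, Epha5 and Ephb3 were not set beside these sums. The part of each cell type was not tested, and in the fit with marker score terms Nrp1 and Ephb3 passed.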

How the results depend on the processing

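Over the members and counts reported, the fit with oligodendrocyte and neutrophil score terms moved the most: 108 of 189 values kept direction and call, 55 lost the call, 4 gained it and 22 reversed. Under it the members called over the stages numbered 12 instead of 22, before symptoms 3 instead of 19, for the change with stage 2 instead of 10, early in MG 11 instead of 19, at end stage in MG 8 instead of 19, against WT 8 instead of 1, and in the grafted set 3 instead of 16. The scores largely follow cell type, so differences between MP and MG under this fit are extrapolated and do not describe either cell type. The reversed differences between MP and MG were, over the stages, Efna2 0.78, Efnb3 0.52, Robo2 0.48, Sema6d 1.49, Sema3c 0.70, Epha5 1.06, Ephb6 0.51, Sema4b -0.069, Plxnb1 1.17 and Ephb1 0.97. Before symptoms they were Efna2 0.11, Efnb3 0.17, Sema6d 0.89, Sema3c 0.39, Epha5 0.36, Ephb6 0.84, Plxnb1 0.084 and Ephb1 0.34, and at end stage Plxnc1 -0.26, Efnb3 0.51 and Sema3c 0.42. In MG at end stage against before symptoms Efnb3 was at 0.19. With library quality weights Plxnc1 in early grafted MG reversed to 0.45, 11 members were called there instead of 0, and 15 against WT. The cause of these changes was not tested. Without the filter on low values more members entered, and 50 were called over the stages, 36 before symptoms, 29 at end stage in MG and 33 in the grafted set. Against WT, 2 were called with a pseudocount of 0.1, with median-ratio scaling, with only the groups compared and with the replicate block, and 4 without MG of high S100a8. Median-ratio scaling shifted the median of all features by -0.42 before symptoms, -0.16 over the stages and 0.38 for the change with stage. Replicate numbers were taken from the labels. Deviations of same-numbered libraries from their group means had r from -0.64 to 0.32, with every r above 0.1 in 1 of 17 pairs of groups. That pair was end-stage MP and MG after G93A marrow (0.142 to 0.319). Whether MG and MP libraries came from the same mice cannot be told from this. The replicate block kept 184 of 189 values, with Nrp2's change with stage at -1.82 (adjusted p = 0.0546). Leaving out 1 library gave 21 to 23 calls over the stages, 16 to 19 before symptoms, 9 to 12 at end stage, 9 to 13 for the change with stage, 8 to 19 early in MG, 16 to 23 at end stage in MG, 0 to 3 against WT, 0 to 1 within MP, 12 to 17 in the grafted set, 0 to 4 in early grafted MG and 0 to 1 in end-stage grafted MP, with 2168 of 2311 values keeping direction and call and 0 reversing. Against WT, 0 members were called without G93A replicate 1, 2 or 3 or WT replicate 3, 3 without G93A replicate 4 and 2 without WT replicate 1. Without early grafted WT-marrow replicate 1, 4 members were called in MG. Read depth is unknown, so values near 0, most of all in MP, have no counting error.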
